A study of Mus musculus with 24 samples.

Results

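The genes that encode the receptors of IL-4 and IL-13, *Il13ra2*, *Il13ra1* and *Il4ra*, were followed over 24 RNA-seq libraries of 3T3 mouse embryonic fibroblasts (MEFs), an immortalized mouse fibroblast line. The 3 genes were taken by name from the 55471 genes in each table of counts. The libraries formed 8 groups of 3, which combined 4 genotypes with 2 treatments, untreated or IL-1β for 6 hours. The genotypes were wild type (*Lkb1* and *Crtc2* intact), *Lkb1*-/- (loss of the kinase LKB1, encoded by *Stk11*), and clones A1 and A2 of *Lkb1*-/-/*Crtc2*-/- MEFs, in which the CREB coactivator CRTC2 had also been targeted by CRISPR. The wild-type and *Lkb1*-/- MEFs were separate, earlier lines. Each *Lkb1*-/-/*Crtc2*-/- line was 1 clone grown from a single sorted cell, so the effect of CRTC2 loss cannot be told apart from other differences of a clone within that clone. The comparisons addressed how LKB1 and CRTC2 bear on gene expression at rest and after an inflammatory stimulus.

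IL-4 and IL-13 are type 2 cytokines that act on fibroblasts, epithelium and macrophages in allergy, helminth infection and fibrosis. IL-4Rα, the product of *Il4ra*, pairs with the common gamma chain to bind IL-4, or with IL-13Rα1 to bind either cytokine, and both pairs signal through JAK kinases to STAT6. IL-13Rα2 binds IL-13 with high affinity, has a short cytoplasmic tail and is known chiefly as a decoy that takes IL-13 away from the signalling receptor.

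Counts on genes ranged from 38842901 to 48594394 pairs per library, with a median of 42431965. *Stk11* counts were lower in *Lkb1*-/- than in wild-type MEFs by a log2 fold change of -2.31 untreated and -2.34 after IL-1β, and *Crtc2* counts were lower in the clones than in *Lkb1*-/- MEFs by between -0.92 and -0.64. Of 8 fibroblast markers 7 were expressed, with a summed level of 5351 to 9915 CPM, whereas *Thy1* had at most 3 counts. Single markers differed between the lines, as *Pdgfra*, which ranged from 3.71 to 6.09 CPM in wild-type libraries but from 216 to 403 CPM in those of *Lkb1*-/- MEFs, and *Col1a2*, which ranged from 447 to 912 CPM in the former but from 28.5 to 73.4 CPM in the latter, and the part of such differences between the lines in the results was not tested. The macrophage list summed to 2.53 to 9.14 CPM, with *Ptprc* and *Adgre1* at 1 count or fewer, the epithelial list to 0.110 to 0.447 CPM, and the endothelial list to 0.370 to 3.80 CPM, with *Cdh5* at 1 count or fewer. Of these lists, *Kdr* (endothelial) was at most 0.569 CPM in the wild-type libraries and at least 1.91 CPM in the other 18, and *Csf1r* (macrophage) at most 0.155 and at least 1.12 CPM, so that both moved with the comparisons against wild-type MEFs, and their part in those results was not tested. The wild-type libraries had a summed level of 4 Y-linked genes of at most 0.148 CPM, and the other 18 libraries had 248 to 293 CPM, so that the wild-type line differed from the others in more than *Lkb1*. These are whole-culture counts, in which fewer expressing cells and less RNA per cell cannot be told apart. The labels do not say that the 3 libraries of a group came from separate cultures, so their spread may be technical.

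*Il13ra2* (ENSMUSG00000031289.10) lies on the minus strand of chrX:147383476-147429192 and *Il13ra1* (ENSMUSG00000017057.9) on the plus strand of chrX:36112110-36171259, whereas *Il4ra* (ENSMUSG00000030748.9) lies on the plus strand of chr7:125552120-125579474, all in GRCm38. All 3 genes matched an entry of RefSeq's promoter table. The 250 bases before the start of *Il13ra2* (chrX:147429193-147429442, minus strand) and of *Il13ra1* (chrX:36111858-36112107, plus strand) are shown because the 2 genes, which encode the decoy and the signalling chain for the same cytokine, differed in how far their expression varied as a fold. They are from RefSeq on GRCm38.p6 and run from 5′ to 3′, with matches to the searched motifs in capitals.
*Il13ra2*: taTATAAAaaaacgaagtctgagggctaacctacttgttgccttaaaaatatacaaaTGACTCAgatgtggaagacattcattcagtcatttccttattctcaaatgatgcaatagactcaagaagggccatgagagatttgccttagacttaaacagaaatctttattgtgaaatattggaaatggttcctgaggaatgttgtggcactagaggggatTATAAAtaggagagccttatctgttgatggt
*Il13ra1*: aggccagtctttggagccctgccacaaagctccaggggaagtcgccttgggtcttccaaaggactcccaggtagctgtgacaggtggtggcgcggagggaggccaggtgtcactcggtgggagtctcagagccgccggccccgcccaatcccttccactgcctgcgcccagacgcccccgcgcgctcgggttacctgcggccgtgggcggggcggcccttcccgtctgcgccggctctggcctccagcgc
The *Il13ra2* window had a GC content of 36% and 1 CpG, and 5.81% of the 32851 mouse promoter windows of this length had a lower GC content. It held the AP-1 letters TGANTCA once, 193 to 187 bases before the start, and the TATA-box letters TATAAA at 248 to 243 and at 31 to 26 bases before the start. These letters were present on either strand in 6.75% (AP-1) and 12.4% (TATA box) of all windows. The *Il13ra1* window was of the opposite kind, with a GC content of 70.8% and 21 CpG, and the *Il4ra* window (chr7:125552021-125552270) had 59.6% and 17 CpG, against medians of 52.4% and 6 over all windows. Of the *Il4ra* window, placed by the RefSeq start, 151 bases lie inside the gene as GENCODE annotates it, so it is not wholly upstream sequence and is not shown. Neither of these windows held any of the 6 motifs searched on both strands. The other 4 motifs were the cAMP response element TGACGTCA (1.55% of all windows), its shorter site TGACG (17.8%), a STAT6 motif (5.85%) and an NF-κB motif (1.41%), and none of them matched in the *Il13ra2* window. The shorter site is contained in the longer element. A match describes letters only, and these windows say nothing of more distant elements.

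*Il13ra2* had the widest range of the 3 genes as a fold, though not in counts, from no count in any untreated wild-type library to more than 500 counts in each IL-1β-treated *Lkb1*-/- library. The 3 genes were chosen with their levels over these groups known, so their values are described here without a test. Levels are CPM, the share of a library's counts on a common scale after TMM scaling of the libraries. In the 3 untreated wild-type libraries the count was 0, 0 and 0, where a floor of 3 counts stands for 0.0670 to 0.0782 CPM. In IL-1β-treated wild-type MEFs *Il13ra2* was at 0.592, 0.560 and 0.750 CPM. The wild-type treated libraries thus stood above the untreated ones without overlap, on 24 to 29 counts each.

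In untreated *Lkb1*-/- MEFs *Il13ra2* was at 0.407, 0.510 and 0.571 CPM, or 18 to 24 counts. After IL-1β the same cells had 13.2, 13.2 and 15.1 CPM, or 551 to 637 counts. These 3 libraries were above every other library of the series. Untreated clone A1 had 0.0732, 0.144 and 0.506 CPM, where the highest library (22 counts, against 3 and 6 in the others) lay inside the range of the untreated *Lkb1*-/- libraries. IL-1β-treated clone A1 had 2.18, 1.43 and 2.60 CPM. In clone A2 the untreated libraries had 0.181, 0.0463 and 0.0881 CPM, on 2 to 9 counts, and the treated libraries 2.67, 3.31 and 5.19 CPM. Every IL-1β-treated library of the clones therefore lay above all untreated libraries and below the IL-1β-treated *Lkb1*-/- libraries.

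**Figure D1:**
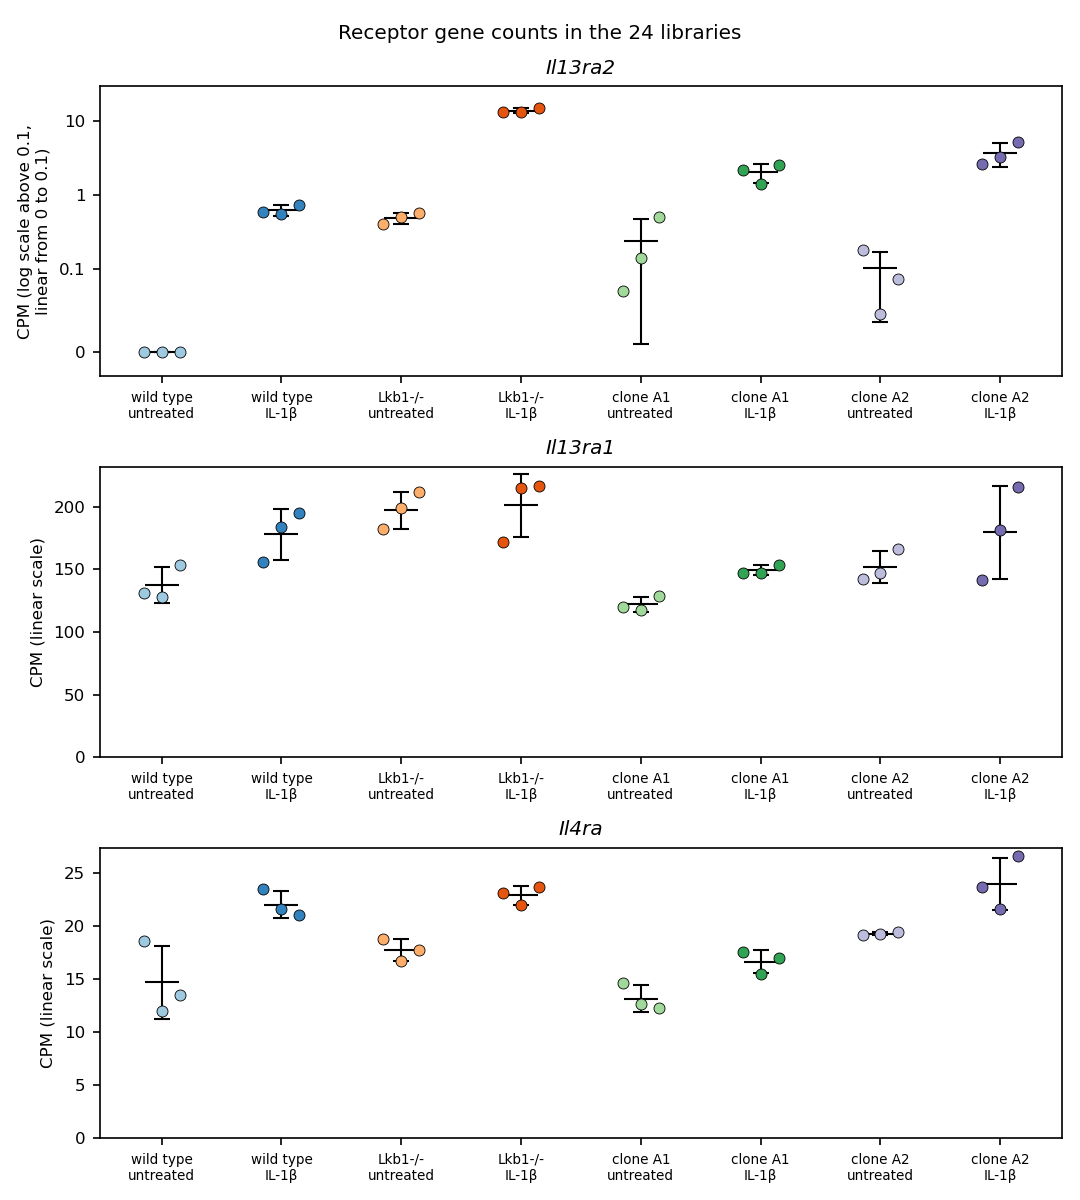
CPM of *Il13ra2* (upper panel, log scale above 0.1 and linear from 0 to 0.1), *Il13ra1* (middle) and *Il4ra* (lower, both linear from 0) in the 8 groups. Each point is 1 library and the bars are mean ± SD (n = 3). *Il13ra2* was at 0 in untreated wild-type MEFs and at 13.2 to 15.1 CPM in IL-1β-treated *Lkb1*-/- MEFs, whereas the group means of *Il13ra1* lay between 122 and 201 CPM and those of *Il4ra* between 13.2 and 23.9 CPM.

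Ordered by level, *Il13ra2* had 13.9 ± 1.09 CPM (SD, n = 3) in IL-1β-treated *Lkb1*-/- MEFs, 3.73 ± 1.31 in treated clone A2, 2.07 ± 0.593 in treated clone A1, 0.634 ± 0.101 in treated wild-type MEFs, 0.496 ± 0.0828 in untreated *Lkb1*-/- MEFs, 0.241 ± 0.232 in untreated clone A1, 0.105 ± 0.0691 in untreated clone A2 and 0 in untreated wild-type MEFs. Each of the 3 highest groups was separate from the group below it. From treated wild-type MEFs down to untreated clone A2 each group overlapped the next, and the untreated wild-type libraries were below all others.

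Between *Lkb1*-/- and wild-type MEFs, *Il13ra2* was higher in *Lkb1*-/- MEFs under both treatments, *Il13ra1* was higher in untreated cells, and *Il4ra* overlapped. Untreated, *Il13ra2* was at least 6.95-fold higher in *Lkb1*-/- MEFs, a bound set against the floor of 3 counts per library. After IL-1β the log2 fold change was 4.45 (SE 0.384, 95% interval 3.64 to 5.25), or 21.8-fold. The ranges were apart for 2 of the 3 genes untreated and for 1 after IL-1β, against 64.8% and 62.6% of all 17522 genes tested in these comparisons. Since the genes were chosen on these levels, nothing is read from these counts.

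*Il13ra2* and *Il13ra1* are both X-linked, and the 531 X-linked genes tested had a median log2 fold change of 0.22 between *Lkb1*-/- and wild-type MEFs untreated and of 0.19 after IL-1β, against 0.04 and 0.03 over autosomal genes. *Xist*, the RNA that silences an X chromosome, had at most 8 counts in any library. The part of the X chromosome, or of the origin of the wild-type line, in the difference of these 2 genes was not tested. Within 500 kb of *Il13ra2*, 3 other genes passed the filter on low counts (*Lrch2*, *Gm25107* and *Gm15128*). In the edgeR test 1 of them was called lower in untreated *Lkb1*-/- than in wild-type MEFs, and after IL-1β 2 were called higher and 1 lower, with log2 fold changes from -4.57 to 1.58. Over all genes, 55.9% were called in this comparison untreated and 57.4% after IL-1β. In the IL-1β response of *Lkb1*-/- MEFs these neighbours lay between -0.02 and 0.55, below the value of *Il13ra2*. Of 5 genes tested within 500 kb of *Il13ra1*, 2 were called higher and 1 lower in untreated *Lkb1*-/- than in wild-type MEFs, from -0.39 to 5.11. After IL-1β 2 were called higher, with values from -0.23 to 3.75. Of 5 near *Il4ra*, 2 were called lower under each treatment, with values from -1.18 to 0.03 untreated and -0.89 to -0.09 after IL-1β.

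Against *Lkb1*-/- MEFs, both *Lkb1*-/-/*Crtc2*-/- clones had less *Il13ra2* after IL-1β, by a log2 fold change of -2.74 in clone A1 (SE 0.341, 95% interval -3.46 to -2.03), or 6.70-fold lower, and of -1.90 in clone A2 (SE 0.326, 95% interval -2.58 to -1.21), or 3.72-fold lower. The ranges did not overlap in either clone. Untreated, clone A2 was lower by a log2 fold change of -2.17 (SE 0.547) with ranges apart, and clone A1 overlapped *Lkb1*-/- MEFs at -1.01 (SE 0.483). This last value rested on 1 library, since it was -2.16 without replicate 3 of untreated clone A1 and -0.60 without replicate 1. Of the 3 receptor genes, the ranges were apart for 2 lower in untreated clone A1 (49.4% of all genes were apart in either direction), for 2 lower and 1 higher in untreated clone A2 (40.7%), for 3 lower in treated clone A1 (44.9%) and for 1 lower in treated clone A2 (39.4%). Nothing is read from these counts either, as the genes were chosen with these levels known. Marker sums also moved with the clones. The macrophage list summed to 4.43 to 6.13 CPM in untreated *Lkb1*-/- MEFs, 7.22 to 8.71 CPM in untreated clone A1 and 6.95 to 7.96 CPM in untreated clone A2. After IL-1β it was 4.63 to 6.55 CPM in *Lkb1*-/- MEFs, which overlapped clone A1 (6.02 to 8.78 CPM) but not clone A2 (7.76 to 9.14 CPM). *Lyz2* of that list had 10 to 20 counts in untreated clone A1 and 0 in untreated *Lkb1*-/- MEFs, and the fibroblast list was higher in clone A1, at 9003 to 9915 CPM against 6585 to 7586 CPM untreated and 7919 to 8893 CPM against 5351 to 6763 CPM after IL-1β. The part of these markers in the clone results was not tested.

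IL-1β was followed by more *Il13ra2* in every genotype. The log2 fold change was 4.80 in *Lkb1*-/- MEFs (SE 0.393, 95% interval 3.97 to 5.62), or 27.8-fold, 3.07 in clone A1 (SE 0.430), or 8.37-fold, and 5.07 in clone A2 (SE 0.471), or 33.6-fold. In wild-type MEFs it was at least 8.88-fold. Clone A2 therefore had a lower level than *Lkb1*-/- MEFs both before and after IL-1β with a fold response that differed by 0.27 on the log2 scale (SE 0.605, 95% interval -0.995 to 1.54), and clone A1 had a response lower by -1.73 (SE 0.604, 95% interval -3.00 to -0.46). The response of clone A1 depended on its untreated replicate 3, without which it was 4.21 and its difference from *Lkb1*-/- MEFs -0.59. In clone A2, replicate 1 of the untreated libraries moved the values most, to -2.81 against untreated *Lkb1*-/- MEFs, 5.74 for the response and 0.94 for its difference from *Lkb1*-/- MEFs when it was left out. The untreated clones had only 2 to 22 counts of *Il13ra2* per library.

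The ranges of treated and untreated libraries were apart and higher with IL-1β for 3 of 3 receptor genes in wild-type MEFs, 2 in *Lkb1*-/- MEFs, 3 in clone A1 and 2 in clone A2, against 9.39%, 9.07%, 7.74% and 7.41% of all genes tested. The genes were chosen with these levels known, so nothing is read from how these counts compare with all genes.

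**Figure D2:**
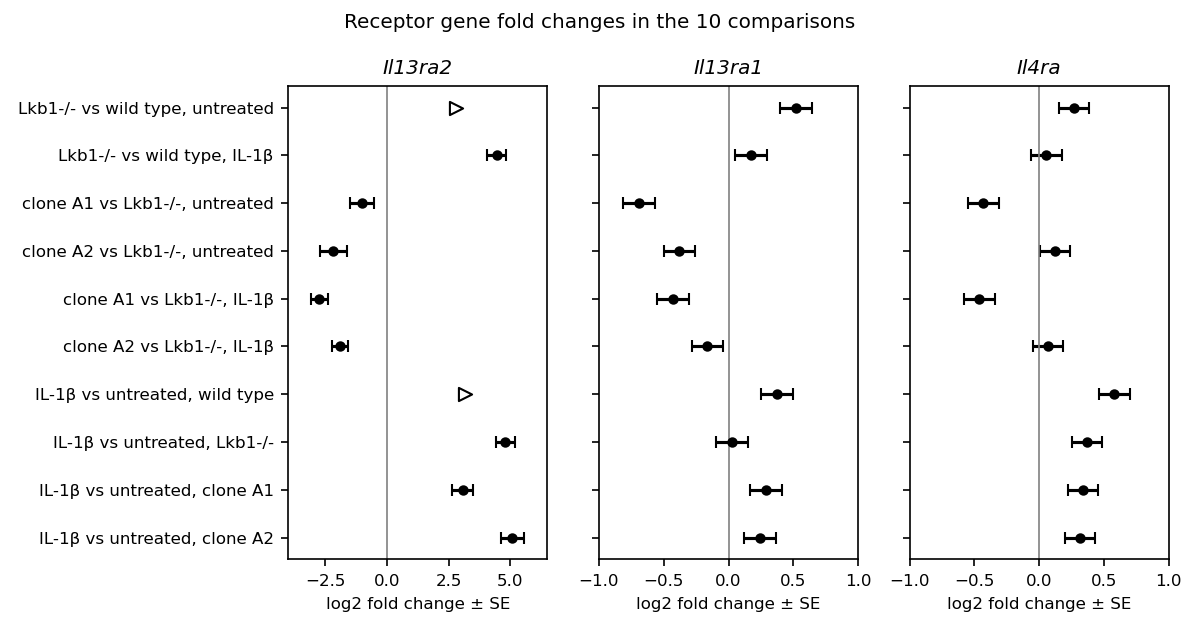
Log2 fold change ± SE of *Il13ra2*, *Il13ra1* and *Il4ra* in the 10 comparisons (rows), from the fit over all 24 libraries. Open triangles are lower bounds for *Il13ra2*, against untreated wild-type libraries without counts. The horizontal scale of *Il13ra2* is wider than that of the other genes, whose log2 fold changes lay between -0.69 and 0.58.

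*Il13ra1*, the chain that completes the signalling receptor for IL-13, was the most abundant of the 3 genes in every library and varied little. Untreated wild-type MEFs had 131, 128 and 154 CPM, and IL-1β-treated wild-type MEFs 156, 184 and 195 CPM. In *Lkb1*-/- MEFs the values were 182, 199 and 211 CPM untreated and 172, 215 and 216 CPM after IL-1β. The wild-type ranges were apart between treatments and the *Lkb1*-/- ranges overlapped. Clone A1 had 119.8, 118 and 129 CPM untreated and 147, 147 and 154 CPM after IL-1β, and clone A2 had 142, 147 and 166 CPM untreated and 141, 181 and 216 CPM after IL-1β. The group means ran from 122 ± 5.97 CPM (SD, n = 3) in untreated clone A1 to 201 ± 25.2 CPM in treated *Lkb1*-/- MEFs, and every neighbouring pair of groups in this order overlapped.

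*Il13ra1* was higher in untreated *Lkb1*-/- than in wild-type MEFs by a log2 fold change of 0.52 (SE 0.122), and overlapped after IL-1β at 0.17 (SE 0.122). Clone A1 was lower than *Lkb1*-/- MEFs by -0.69 untreated and by -0.43 after IL-1β, with ranges apart both times (SE 0.123 and 0.122). Clone A2 was lower by -0.38 untreated (SE 0.122) and overlapped after IL-1β at -0.16 (SE 0.122). With IL-1β the log2 fold change was 0.37 in wild-type MEFs and 0.29 in clone A1, with ranges apart, and 0.24 in clone A2 and 0.03 in *Lkb1*-/- MEFs, with ranges that overlapped. The response of *Lkb1*-/- MEFs differed from that of wild-type MEFs by -0.35 (SE 0.173, 95% interval -0.71 to 0.01).

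*Il4ra*, the chain shared by both signalling receptors, had treated and untreated ranges apart in all 4 genotypes, as *Il13ra2* did, at a much smaller fold change. Wild-type MEFs had 18.6, 12.0 and 13.5 CPM untreated and 23.5, 21.6 and 21.0 CPM after IL-1β. *Lkb1*-/- MEFs had 18.7, 16.7 and 17.8 CPM untreated and 23.1, 21.9 and 23.7 CPM after IL-1β. The 2 genotypes overlapped under both treatments. Clone A1 was the low line, with 14.7, 12.6 and 12.2 CPM untreated and 17.5, 15.4 and 17.0 CPM after IL-1β. Clone A2 had 19.2, 19.3 and 19.4 CPM untreated and 23.7, 21.6 and 26.6 CPM after IL-1β. In order of level, treated clone A2, treated *Lkb1*-/- and treated wild-type MEFs overlapped each other at means of 23.9 ± 2.49, 22.9 ± 0.881 and 22.0 ± 1.28 CPM (SD, n = 3). They were followed, with gaps, by untreated clone A2 at 19.3 ± 0.117 and untreated *Lkb1*-/- MEFs at 17.7 ± 1.03, and then with overlaps by treated clone A1 at 16.6 ± 1.08, untreated wild-type MEFs at 14.7 ± 3.43 and untreated clone A1 at 13.2 ± 1.31.

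The log2 fold change of *Il4ra* with IL-1β was 0.58 in wild-type MEFs, 0.37 in *Lkb1*-/- MEFs, 0.34 in clone A1 and 0.31 in clone A2, with SEs from 0.116 to 0.118, and the 3 differences between responses lay between -0.21 and -0.03 with SEs of 0.165 to 0.166. Clone A1 was lower than *Lkb1*-/- MEFs by -0.43 untreated and by -0.46 after IL-1β, with ranges apart. Clone A2 was higher by 0.12 untreated, with ranges apart in spite of an interval from -0.12 to 0.36, and overlapped at 0.06 after IL-1β. *Lkb1*-/- and wild-type MEFs differed by 0.27 (SE 0.118) untreated and by 0.06 (SE 0.116) after IL-1β. The untreated difference was 0.47 without replicate 1 and 0.14 without replicate 2 of untreated wild-type MEFs. An antisense gene inside *Il4ra*, *Gm44876*, had at most 1 count.

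To compare the genes with each other, CPM were divided by exon length. On this scale *Il13ra2* was 11.3 ± 1.25% of *Il13ra1* (SD, n = 3) in IL-1β-treated *Lkb1*-/- MEFs, 3.32 ± 0.516% in treated clone A2, 2.25 ± 0.60% in treated clone A1 and 0.581 ± 0.0727% in treated wild-type MEFs. The 3 lines without *Lkb1* did not overlap each other after IL-1β. Untreated, the decoy gene was 0.407 ± 0.0388% of *Il13ra1* in *Lkb1*-/- MEFs, 0.312 ± 0.287% in clone A1, 0.115 ± 0.0822% in clone A2 and 0 in wild-type MEFs. *Il4ra* stood at 5.59% to 8.44% of *Il13ra1* in the group means, a narrower range than that of the decoy. By group mean *Il13ra2* exceeded *Il4ra* per length only in treated *Lkb1*-/- MEFs, at 159 ± 8.55% of it, against 40.5 ± 10.9% in treated clone A2 and 32.5 ± 7.98% in treated clone A1.

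**Figure D3:**
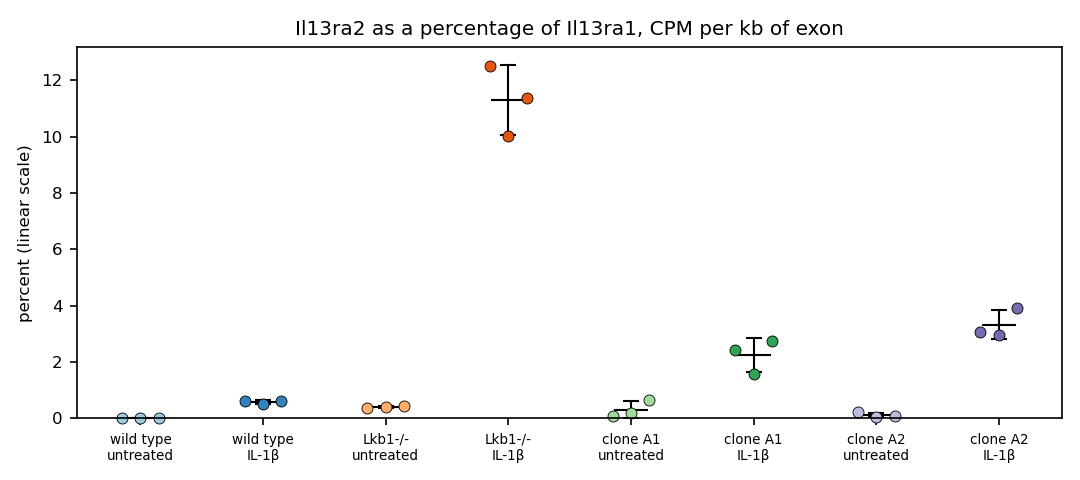
*Il13ra2* as a percentage of *Il13ra1*, both in CPM per kb of exon, in the 8 groups on a linear scale from 0. Points are libraries and bars are mean ± SD (n = 3). IL-1β-treated *Lkb1*-/- libraries were at up to 12.5%, with a mean of 11.3%, and every other library was at 3.91% or less.

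Genes with a pattern most like each receptor gene were found by Pearson's r of log2 CPM over the 24 libraries, among 9369 genes with a mean log2 CPM above 3 for *Il13ra2* and 9368 for the others. These libraries share 8 groups, so r describes mostly differences between groups. For *Il13ra2* they were *Fas*, which encodes a death receptor (r = 0.95), *Syt7*, a calcium sensor of vesicle release (0.93), *Slc11a2*, a transporter of iron and other divalent metals (0.92), *Dtwd1* (0.92) and *Nfkbiz*, a nuclear IκB protein induced by IL-1 (0.92). The group mean of *Fas* was 7.50 CPM untreated and 31.7 CPM after IL-1β in wild-type MEFs and 20.8 and 117 CPM in *Lkb1*-/- MEFs, and it was 78.0 and 90.6 CPM in treated clones A1 and A2, the order of the 4 treated groups seen for *Il13ra2*. The most like genes for *Il13ra1* were *Fgfr1*, a fibroblast growth factor receptor (0.90), *Spidr* (0.89), *Acsl1*, an acyl-CoA synthetase (0.89), *Nfe2l2*, which encodes NRF2 (0.88), and *Btbd9* (0.87). For *Il4ra* they were *Entr1* (0.82), *Morc3* (0.82), the metallothionein gene *Mt2* (0.81), *Ier3* (0.80) and *Taf8* (0.79), all lower values than for the other receptor genes.

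The rest of the pathway was followed in a list of 40 genes, of which 28 passed the filter and were tested with edgeR, a gene being called at a false discovery rate (FDR) under 0.05 over all genes. The ligand genes were not expressed to a level that could be tested, with 5 counts of *Il4* and 3 of *Il13* over all 24 libraries together. Of the 28, 10 were called higher and 7 lower in *Lkb1*-/- than in wild-type MEFs, untreated as well as after IL-1β, or 60.7% of the list each time, against 55.9% and 57.4% of all genes. Against *Lkb1*-/- MEFs, clone A1 had 6 higher and 9 lower untreated (53.6%, against 35.3% of all genes) and 6 higher and 10 lower after IL-1β (57.1%, against 36.7%). Clone A2 had 6 higher and 7 lower untreated (46.4%, against 32.3%) and 5 higher and 8 lower after IL-1β (46.4%, against 32.8%). With IL-1β 4 were called higher in wild-type MEFs (14.3%, against 2.26%), 3 higher and 3 lower in *Lkb1*-/- MEFs (21.4%, against 4.74%), 1 and 1 in clone A1 (7.14%, against 1.99%) and 3 and 4 in clone A2 (25%, against 5.68%). The list was chosen with earlier results of these data known, so nothing is read from how its shares compare with all genes. The median log2 fold change of the list lay between -0.11 and 0.09 in the 10 comparisons, and that of all genes between -0.02 and 0.04, and the IL-1β counts of the list changed with the analysis settings, the replicate number as a block among them, as given at the end. Calls of list genes named from here on were kept under every alternative that tested the gene unless another value is given, apart from lower bounds, for which alternatives were not followed.

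Among receptor partners, *Il2rg*, which encodes the common gamma chain, was near the limit of detection, with 32 counts at most. It was called higher in untreated clone A2 than in *Lkb1*-/- MEFs (log2 fold change 2.55, SE 0.685, edgeR FDR = 0.00649), and also after IL-1β (1.70, SE 0.566, edgeR FDR = 0.0248), where the call was lost without replicate 1 or 3 of *Lkb1*-/- MEFs or replicate 1 of clone A2. Its group means lay between 0.0549 and 0.471 CPM, so that the partner of *Il4ra* in the IL-4 receptor was far less abundant than *Il13ra1*, the partner in the receptor shared with IL-13. Among relatives of these receptors, *Csf2rb*, the common beta chain of the IL-3, IL-5 and GM-CSF receptors, was at 0 in all 3 untreated wild-type libraries and at 4.83 ± 1.36 CPM (SD, n = 3) in untreated *Lkb1*-/- MEFs, at least 67.7-fold higher (edgeR FDR = 1.9e-11). It was lower in clone A1 than in *Lkb1*-/- MEFs, by -3.75 untreated and by -3.24 after IL-1β (edgeR FDR = 3.9e-08 and 5.5e-07). In clone A2 the ranges of *Csf2rb* overlapped those of *Lkb1*-/- MEFs, at -0.66 untreated and -0.03 after IL-1β (edgeR FDR = 0.0585 and 0.942). In *Lkb1*-/- MEFs *Csf2rb* was called lower with IL-1β at -1.22 (SE 0.262, edgeR FDR = 0.00755), opposite in direction to *Il13ra2*, and without replicate 3 of untreated *Lkb1*-/- MEFs the value was no longer called.

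Of the 8 kinases, STAT6 and adaptors, *Jak3*, the kinase that binds the common gamma chain, had the largest differences between clone A1 and *Lkb1*-/- MEFs. It was lower by -1.46 in untreated and -1.40 in treated clone A1 (edgeR FDR = 3.4e-08 and 6.2e-08), and by -0.58 and -0.55 in clone A2 (edgeR FDR = 0.00111 and 0.00191). *Jak2*, which serves IL-13 receptors in some cells, was lower after IL-1β in both clones, by -1.11 in A1 and -0.59 in A2 (edgeR FDR = 1.4e-05 and 0.0062). It was also called lower in both untreated clones. Its untreated levels were 27.8 to 32.1 CPM in A1 and 33.6 to 49.0 CPM in A2, against 51.7 to 63.8 CPM in *Lkb1*-/- MEFs. The untreated A2 call was lost in 3 of 6 fits that left out 1 library and in 1 other setting. *Stat6*, the transcription factor at the end of the pathway, was higher in clone A1 by 0.38 untreated and 0.31 after IL-1β (edgeR FDR = 0.000924 and 0.00522). In clone A2 *Stat6* was at 0.26 untreated, a call lost without replicate 2 of untreated *Lkb1*-/- MEFs, and at 0.16 after IL-1β (edgeR FDR = 0.0186 and 0.159). Against wild-type MEFs, *Stat6* differed in *Lkb1*-/- MEFs by -0.13 untreated and -0.07 after IL-1β, with edgeR FDRs of 0.187 and 0.509. *Irs2*, an insulin receptor substrate that IL-4 receptors also recruit, was lower in both clones under both treatments, by -0.57 to -0.45 (edgeR FDRs from 0.000417 to 0.0027). Its relative *Irs1* was higher in clone A1, by 0.91 untreated and 1.21 after IL-1β, where clone A2 had 0.04 and -0.0041 (edgeR FDR = 0.834 and 0.989). *Irs1* was lower with IL-1β in *Lkb1*-/- MEFs by -0.81 (edgeR FDR = 0.000421). It was also called lower with IL-1β in clone A2, a call lost in 1 setting other than leaving out a library. In clone A1 it was called lower too, a call lost in 6 of 6 fits that left out 1 library.

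Among 7 inhibitors of the pathway, *Socs3*, a feedback inhibitor of JAK signalling, and *Bcl6*, a repressor at STAT6 target genes, were higher in *Lkb1*-/- than in wild-type MEFs, by 1.21 and 0.88 untreated and by 1.28 and 0.86 after IL-1β (edgeR FDRs from 7.4e-11 to 0.000358). Against *Lkb1*-/- MEFs, *Socs3* was called higher in clone A2, by 0.69 untreated and 0.66 after IL-1β (edgeR FDR = 0.0386 and 0.0465), calls each lost in 4 of 6 fits that left out 1 library, and was at -0.41 and -0.61 in clone A1 (edgeR FDR = 0.227 and 0.0616). *Bcl6* was lower in clone A2 than in *Lkb1*-/- MEFs, by -0.25 untreated and -0.44 after IL-1β (edgeR FDR = 0.00246 and 9.8e-06). *Cish* and *Ptpn6* were lower in untreated clone A1, by -1.07 and -0.70 (edgeR FDR = 0.000874 and 0.00215). Both were also called lower in treated clone A1, where the *Cish* call was lost in 1 setting other than leaving out a library. In untreated clone A2 *Cish* was at -0.09 (edgeR FDR = 0.807). *Ptpn6* was called in the opposite direction in clone A2, higher by 0.51 untreated and 0.54 after IL-1β (edgeR FDR = 0.0177 and 0.0129), calls that were lost when replicate 3 of clone A2, or replicate 2 of *Lkb1*-/- MEFs, of that treatment was left out, and after IL-1β also without replicate 1 of *Lkb1*-/- MEFs. *Socs1*, a feedback inhibitor of IL-4 signalling, had log2 fold changes from -0.13 to 0.25 in the 10 comparisons, with edgeR FDRs from 0.0806 upward.

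*Chil1* encodes a chitinase-like protein that binds IL-13Rα2, and *Tmem219* encodes a partner of IL-13Rα2 in that binding. In wild-type MEFs the level of *Chil1* was 0.470 ± 0.0955 CPM (SD, n = 3) before and 5.52 ± 1.39 CPM after IL-1β. The corresponding levels in *Lkb1*-/- MEFs were 8.89 ± 0.992 and 16.5 ± 3.61 CPM. It was thus higher in *Lkb1*-/- MEFs by 4.22 untreated and 1.58 after IL-1β (edgeR FDR = 4.5e-10 and 2.0e-05), and rose with IL-1β by 3.54 in wild-type MEFs (edgeR FDR = 6.6e-07). With IL-1β it was also called higher in *Lkb1*-/- MEFs, by 0.89 (edgeR FDR = 0.0429), a call lost in 5 of 6 fits that left out 1 library, and in clone A2, by 1.33 (edgeR FDR = 0.00253), a call lost when only the compared groups were fitted, and it was at 0.79 in clone A1 (edgeR FDR = 0.173). In clone A1 it was lower than in *Lkb1*-/- MEFs, by -1.38 untreated and -1.48 after IL-1β (edgeR FDR = 0.000326 and 0.000114), and in untreated clone A2 by -1.22 (edgeR FDR = 0.00109). In treated clone A2 it was at -0.78 (edgeR FDR = 0.0201), a call lost in 4 of 6 fits that left out 1 library. *Tmem219* was lower in untreated *Lkb1*-/- MEFs than in wild-type MEFs by -0.52 (SE 0.141, edgeR FDR = 0.0034).

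Of 12 genes known to respond to IL-4 or IL-13, 6 passed the filter. Against wild-type MEFs, 2 of the 6 were called higher, 2 lower and 2 not in *Lkb1*-/- MEFs under either treatment (edgeR). Over all genes, 55.9% were called in this comparison untreated and 57.4% after IL-1β. The 2 not called were *Tgm2*, a transglutaminase, at -0.86 untreated and -0.82 after IL-1β (edgeR FDR = 0.0511 and 0.061), and the chemokine gene *Ccl17*, at -0.56 and -0.13 (edgeR FDR = 0.5004 and 0.859). These tests did not block on the replicate number. The ranges of *Tgm2* were apart, at 22.6 to 39.0 CPM in *Lkb1*-/- against 46.1 to 61.6 CPM in wild-type MEFs untreated. After IL-1β they were 26.3 to 45.7 against 54.7 to 71.8 CPM. Among those that did not pass the filter were *Retnla*, *Chil3*, *Ccl24*, *Ccl22* and *Alox15*, with 6 counts or fewer in any library. *Ccl11*, the eosinophil chemokine eotaxin, had no counts in the wild-type libraries and was higher in treated clones than in treated *Lkb1*-/- MEFs, by 2.22 in A1 and 1.81 in A2 (edgeR FDR = 3.6e-05 and 0.000354), at 0.973 and 0.734 CPM. *Vcam1*, an adhesion molecule, was lower in *Lkb1*-/- than in wild-type MEFs, by -3.02 untreated and -2.73 after IL-1β (edgeR FDR = 2.3e-10 and 6.9e-10). It rose with IL-1β in wild-type MEFs, *Lkb1*-/- MEFs and clone A2, by 1.09, 1.38 and 1.32 (edgeR FDRs from 0.00027 to 0.00337), and was at 0.70 in clone A1 with ranges apart (edgeR FDR = 0.101). *Mrc1*, the mannose receptor gene, rose with IL-1β by 4.08 in wild-type and 2.58 in *Lkb1*-/- MEFs (edgeR FDR = 7.7e-05 and 0.000203), and its response was 1.33 in clone A1 and 1.17 in clone A2 (edgeR FDR = 0.12 and 0.215). The untreated wild-type libraries had 2, 2 and 1 counts of *Mrc1*, under the floor of 3 counts. The size of the wild-type response, and its difference from the others, is therefore rough. After IL-1β it was lower in clones A1 and A2 than in *Lkb1*-/- MEFs, by -1.25 and -2.61 (edgeR FDR = 0.00842 and 2.8e-05). *Postn*, a matrix protein, was lower in *Lkb1*-/- than in wild-type MEFs by -3.03 untreated and -4.31 after IL-1β (edgeR FDR = 0.00504 and 0.000919), on 28 counts at most. The *Lkb1*-/- libraries had 4, 1 and 0 counts of *Postn* untreated and 2, 0 and 0 after IL-1β, near or under the floor, so these sizes are rough. Group means of *Mrc1*, *Ccl11* and *Postn* were at most 1.53 CPM.

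**Figure D4:**
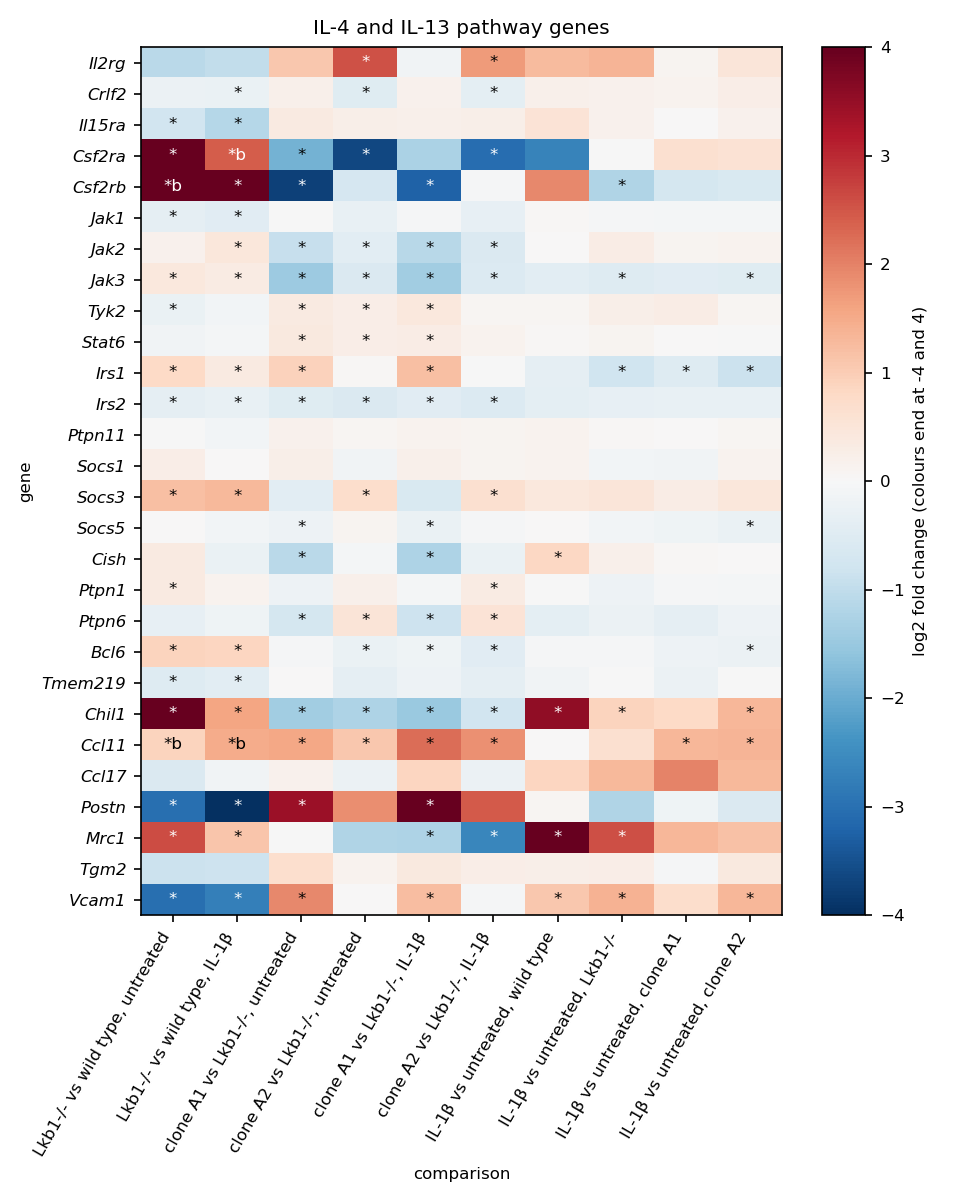
Log2 fold change (colours, which end at -4 and 4) of the 28 tested genes of the IL-4 and IL-13 pathway list (rows) in the 10 comparisons (columns). An asterisk marks a gene called by edgeR and b marks a lower bound against a group without counts. *Csf2rb*, *Jak3* and *Chil1* were lower in clone A1 than in *Lkb1*-/- MEFs under both treatments, and *Vcam1* was higher.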

How the data were processed

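MEF libraries were sequenced as paired reads, which the authors trimmed with Trim Galore 0.6.0 and aligned with STAR 2.7.8a to GRCm38. They deposited raw counts from STAR, 1 set unstranded and 1 for each strand. The paper and the labels name different library kits, so the kit is unsettled. The second strand setting (95.5% to 96.0% of stranded pairs) was used, and the 4 lines that name no gene (26.7% to 34.4% of pairs) were left out. Symbols and positions came from GENCODE M21.

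Counts were filtered with filterByExpr (minimum count 10, minimum total 15, leaving 17522 genes), scaled by TMM and fitted with edgeR 4.0.16 in R 4.3.3, using its older quasi-likelihood test with 1 coefficient for each group and Benjamini-Hochberg adjustment. All 24 libraries shared 1 estimate of the spread. SEs came from that test. The steps were tested on simulated data. The values of 1 list gene under the filter are not reported here. The receptor genes and the pathway list were chosen with earlier results of these data known. Alternatives were unstranded counts, DESeq2 1.42.0 and its size factors, upper quartile scaling, other filters, the newer quasi-likelihood form, a replicate block, a fit of the compared groups alone and fits without 1 library. Genes named were the receptor genes, list members, the 5 most correlated genes for each, neighbours and targeted genes.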

Additional observations from a re-analysis of the deposited data

Results flagged for a closer look

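The IL-1β response of *Chil1*, which encodes a ligand of IL-13Rα2, differed between genotypes by the test of the difference itself. The log2 response was lower in *Lkb1*-/- than in wild-type MEFs by -2.65 (SE 0.416, edgeR FDR = 0.0035), from separate responses of 0.89 and 3.54. It was called under all 21 alternatives, with values from -2.84 without replicate 1 of treated wild-type MEFs to -2.13 with unstranded counts.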

How the results depend on the processing

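For the 3 receptor genes, 559 of 560 alternative values moved by less than the spread between replicates. The other was *Il4ra* between treated *Lkb1*-/- and wild-type MEFs, which was 0.06 and became 0.16 with upper quartile scaling, a setting that moved the median of all genes in this comparison by 0.10. This measure was lenient. In 276 of the values 1 library was left out, which can hardly move a group mean beyond that spread, so they say little about stability. *Il13ra2* in untreated clone A1 against *Lkb1*-/- MEFs counted as within it. That value went from -1.01 to -2.16 without replicate 3 of untreated clone A1.

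Counts of called list genes moved by over 1.5 times as follows. The IL-1β count of clone A1 (2) was 1 with unstranded counts, 4 with upper quartile scaling, 5 without a filter and 6 with DESeq2. That of wild-type MEFs (4) was 8 without a filter. Between treated *Lkb1*-/- and wild-type MEFs 17 became 10 with at least 10 counts in every library, where fewer genes were tested. With only the groups compared, treated clone A2 against *Lkb1*-/- MEFs went from 13 to 8 and the IL-1β count of clone A2 from 7 to 1. Where no cause is named, the cause was not tested.

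Replicate numbers were not taken to pair the libraries, since same-number correlations of deviations ranged from 0.0355 to 0.589 (median 0.222) and 69 of 84, not all, passed 0.1, although 23 of 24 libraries correlated best with their own number. With the replicate block the IL-1β counts were 10 in wild-type MEFs, 10 in *Lkb1*-/- MEFs and 11 in clone A1, or 35.7%, 35.7% and 39.3% of the list, where 9.30%, 14.8% and 9.61% of all genes were called in the same fit, and receptor values moved by at most 0.0451. Between *Lkb1*-/- and wild-type MEFs the block gave 21 list genes untreated (75%, against 64.3% of all genes). After IL-1β it gave 19 (67.9%, against 65.9%), where 17 were called each time without it. As the list was chosen with earlier results known, nothing is read from these shares. Calls given elsewhere, also of genes not called, came from the fit without the block.

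Leaving out 1 library moved the list counts to between 0 and 2 for the IL-1β response of clone A1, between 3 and 6 for *Lkb1*-/- MEFs (3 without replicate 3 of the untreated cells), between 3 and 7 for clone A2 (3 without replicate 3 of the treated cells), and between 7 and 13 for untreated clone A2 against *Lkb1*-/- MEFs (7 without replicate 2 of untreated *Lkb1*-/- MEFs). Values of the receptor genes near 0 changed sign, as *Il13ra1* in clone A2 against *Lkb1*-/- MEFs after IL-1β (-0.32 to 0.0035) and in the response of *Lkb1*-/- MEFs (-0.02 to 0.13), and *Il4ra* in clone A2 against *Lkb1*-/- MEFs after IL-1β (-0.02 to 0.15). Lower bounds of *Il13ra2* lay between 2.63 and 3.23 on the log2 scale.

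Of 107 calls of list genes, 65 were kept in every alternative, 36 were lost when at least 1 library was left out, and 0 changed direction. Depth limits *Il13ra2* in untreated cells, where a floor of 3 counts is 0.0604 to 0.0782 CPM.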
